A study of Homo sapiens with 2 samples.

Results

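The GIMAP genes encode a family of GTPases of lymphocytes, and 7 of them lie side by side on chromosome 7: GIMAP1, GIMAP2, GIMAP4, GIMAP5, GIMAP6, GIMAP7 and GIMAP8. These 7 genes were taken by name and matched to their gene IDs, out of 57773 genes in the count files. RNA sequencing data were examined from REH and 697, established human cell lines of BCP-ALL (acute lymphoblastic leukemia of B-cell precursors), with 1 library per line and no further treatment of the cells. In REH the ETV6/RUNX1 fusion is present and the second ETV6 allele is deleted, whereas 697 is ETV6/RUNX1-negative. Each line stands for 1 culture of 1 leukemia, so that the fusion and every other difference between the lines cannot be told apart.

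GIMAP proteins (GTPases of immunity-associated proteins) share a GTP-binding domain known as AIG1, and several of them are anchored in intracellular membranes. They are best known for the survival and development of lymphocytes: loss of GIMAP5 in rodents leads to a shortage of T cells, and GIMAP1 is required for mature B and T cells in mice. GIMAP6 is known to bind GABARAPL2, a protein of autophagy, and GIMAP2 has been located on lipid droplets. GIMAP expression is a feature of mature lymphocytes, and BCP-ALL cells resemble an earlier stage.

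The REH library held 45188375 reads in genes and the 697 library 41097497. A gene was compared between the lines if it had at least 10 reads in at least 1 library, which left 19145 genes. Levels are given as CPM (the reads of a gene per 1000000 reads in genes, with library totals scaled by the trimmed mean of M-values, TMM), and as RPKM (CPM per kb of exon) where genes are set against each other. Without replicates no p-value can be given. Intervals are 95% counting intervals, which leave out the variation between cultures and library preparations. A count of 0 was read as allowing up to 3 reads, which is 0.0597 CPM in REH and 0.0812 CPM in 697.

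Of the 7 GIMAP genes, 4 had at least 10 reads in REH and 2 had at least 10 reads in 697. The family was dominated by GIMAP2 in both lines, GIMAP4 and GIMAP6 were present in REH and at or near 0 in 697, and GIMAP1 was the member with more reads in 697. GIMAP5, GIMAP7 and GIMAP8 had fewer than 10 reads in both libraries. In bulk RNA a level near 0 in all cells and a higher level in few cells cannot be told apart.

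The stretches before the start sites of the 4 genes with 10 reads or more are shown first, because these neighbouring genes differed in their pattern between the lines. Each run gives the 250 bases before the RefSeq start of the gene on its own strand, from the GRCh38.p14 assembly. Capitals mark matches, on either strand, to the letters searched. These were TGNGGT for the RUNX factors, CCGGAA for the ETS factors to which ETV6 belongs, and CANNTG for the E-box bound by basic helix-loop-helix factors. The CCAAT box was searched as well, the TATA box as TATAAA, and a GATA motif as AGATAA. The windows lie at chr7:150567140-150567389 for GIMAP4, chr7:150632386-150632635 for GIMAP6 (minus strand), chr7:150685456-150685705 for GIMAP2 and chr7:150716363-150716612 for GIMAP1.
GIMAP4: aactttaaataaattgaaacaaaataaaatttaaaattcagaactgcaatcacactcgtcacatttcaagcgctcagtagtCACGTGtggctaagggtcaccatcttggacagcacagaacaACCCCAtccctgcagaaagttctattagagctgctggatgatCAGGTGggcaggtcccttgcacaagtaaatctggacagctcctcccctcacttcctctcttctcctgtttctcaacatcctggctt
GIMAP6: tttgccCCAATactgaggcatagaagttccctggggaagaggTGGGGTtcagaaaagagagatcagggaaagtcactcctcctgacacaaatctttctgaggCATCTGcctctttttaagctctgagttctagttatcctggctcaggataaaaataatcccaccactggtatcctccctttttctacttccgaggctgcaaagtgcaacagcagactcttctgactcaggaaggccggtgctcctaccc
GIMAP2: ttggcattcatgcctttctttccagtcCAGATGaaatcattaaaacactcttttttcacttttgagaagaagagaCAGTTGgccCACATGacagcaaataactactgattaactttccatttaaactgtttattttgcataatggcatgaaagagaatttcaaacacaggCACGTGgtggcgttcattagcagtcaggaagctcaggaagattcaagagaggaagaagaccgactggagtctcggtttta
GIMAP1: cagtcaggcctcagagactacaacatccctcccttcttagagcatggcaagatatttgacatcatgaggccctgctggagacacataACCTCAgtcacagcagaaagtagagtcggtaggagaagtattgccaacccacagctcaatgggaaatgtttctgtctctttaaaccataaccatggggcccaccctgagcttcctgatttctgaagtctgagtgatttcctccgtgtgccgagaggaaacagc

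A match to TGNGGT was found before GIMAP4 (128 bases before the RefSeq start), GIMAP6 (208 bases) and GIMAP1 (163 bases), and none before GIMAP2 within these 250 bases. The letters matched were TGGGGT for GIMAP4 and GIMAP6 and TGAGGT for GIMAP1. The usual RUNX core, TGTGGT or TGCGGT, was thus not found in the window of any member. The GIMAP2 window held 4 E-box matches, against 2 for GIMAP4, 1 for GIMAP6 and 0 for GIMAP1. Over all 7 members, 3 windows held a TGNGGT match and 4 held an E-box match. Over the 35116 promoters of the RefSeq table, windows of the same length held a TGNGGT match in 37.7% of cases and an E-box match in 61.8%. No member had a match to CCGGAA (14.5% of all promoters) or the GATA letters (9.17%). Other ETS sites with GGAA were not searched for, so ETS sites are not shown to be absent. The CCAAT letters (32.0%) were found before GIMAP6 alone, and the TATA box letters (10.7%) before GIMAP7 alone. The share of G and C in the 7 windows ran from 39.6% in GIMAP2 to 49.2% in GIMAP1. These shares were below the median of all promoters, 58.0%, but within the range from the 5th percentile (34.4%) to the 95th (78.4%). These matches describe letters and not bound sites, and no binding data were used.

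GIMAP2 encodes a membrane-anchored GTPase of 337 amino acids and lies at 150685697 to 150693641 on chromosome 7 (GRCh38, GENCODE 44). It had 1346 reads or 26.8 CPM in REH (25.4 to 28.2) and 743 reads or 20.1 CPM in 697 (18.7 to 21.6). The log2 ratio of REH over 697 was 0.41 (0.28 to 0.54), a 1.33-fold difference. This exceeded counting error but is small, and no replicate spread is available to set it against. Per kb of exon, GIMAP2 reached 12.8 RPKM in REH and 9.59 RPKM in 697, above the medians of 5.10 and 5.12 RPKM of the 13489 coding genes compared. It lay above 82.2% of all 19208 coding genes in REH and above 76.1% in 697.

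GIMAP4 encodes a GTPase of 329 amino acids that has been studied in T cell death and cytokine secretion. It was counted 99 times in REH (1.97 CPM, 1.60 to 2.398) and 0 times in 697. The level in REH was 24.3-fold that of the 3 reads that a count of 0 allows in 697. With the counting error of the 99 reads, the interval of the fold started at 19.4 (a log2 ratio of 4.28) and had no upper end. GIMAP4 lies at 150567369 to 150573953, between GIMAP7 and GIMAP6.

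GIMAP6, whose protein of 292 amino acids takes part in autophagy, is the member that runs on the minus strand (150625375 to 150632648). It had 98 reads in REH (1.95 CPM, 1.58 to 2.38) and 1 read in 697. The log2 ratio was 5.59, with a counting interval of 3.66 to 11.49 that is wide because of the single read. GIMAP4 and GIMAP6 were therefore close to each other in CPM in REH, but per kb of exon GIMAP4 was 1.88-fold higher (1.41 to 2.52), at 0.938 RPKM against 0.498 RPKM. Both were below the median coding gene in REH.

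GIMAP1 encodes a GTPase of 306 amino acids and lies at 150716606 to 150724284. It had 33 reads in REH (0.657 CPM, 0.452 to 0.922) and 76 reads in 697 (2.06 CPM, 1.62 to 2.57). It was thus 3.11-fold higher in 697 (2.06 to 4.87), with a log2 ratio of -1.64 (-2.28 to -1.04). The direction was opposite to that of GIMAP4 and GIMAP6, which lie in the same cluster. The ratio did not reach 2 in size, and it rests on few reads.

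GIMAP5, a GTPase of lysosomal membranes in lymphocytes, had 2 reads in REH and 0 in 697. GIMAP7, which is known to stimulate GTP hydrolysis by GIMAP2, had 1 read in REH and 0 in 697. Neither passed the floor of 3 reads in any library, and no fold is given for them. GIMAP8 is the longest protein of the family, with 665 amino acids and several GTP-binding domains. It had 9 reads in REH (0.179 CPM, 0.0819 to 0.340) and 0 in 697, and the level in REH was 2.21-fold that of the 3 reads that a count of 0 allows. With the counting error of the 9 reads, the interval of the fold started at 1.45. At this depth these 3 genes were hardly detectable, and a low level in 697 is not shown to be absent.

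**Figure D1:**
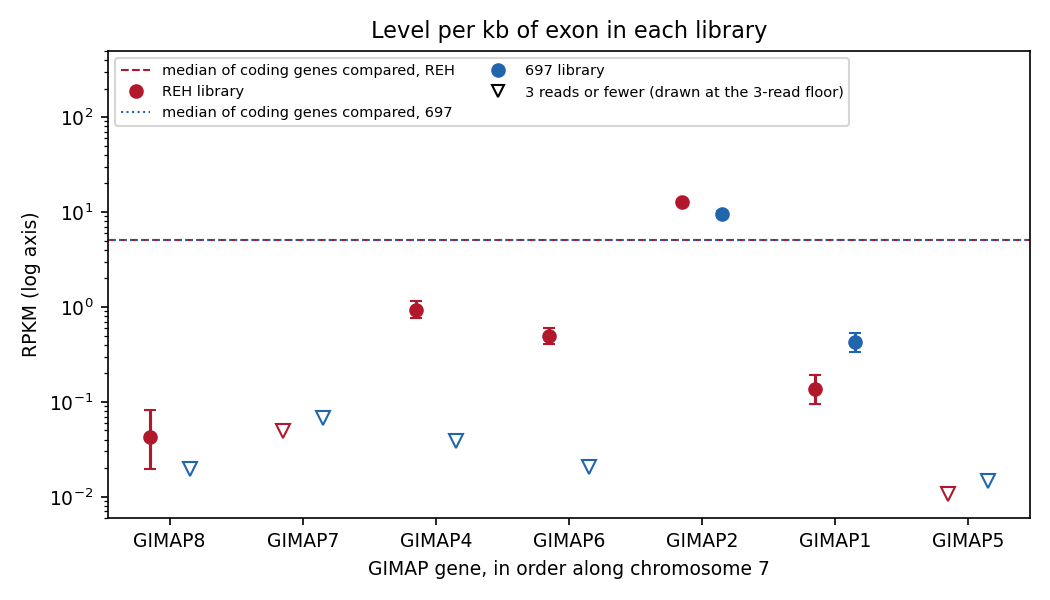
Level of each GIMAP gene in RPKM (log axis) in REH (red) and 697 (blue), in order along the chromosome, with 95% exact Poisson intervals as bars and open triangles at the 3-read floor for genes with 3 reads or fewer. GIMAP2 at 12.8 and 9.59 RPKM stands above the dashed and dotted medians of coding genes, which overlap, and the other members lie below them.

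The order of the levels per kb in REH was GIMAP2, GIMAP4, GIMAP6, GIMAP1, GIMAP8, GIMAP7 and GIMAP5. GIMAP2 exceeded GIMAP4 by 13.6-fold (11.1 to 16.9), GIMAP6 exceeded GIMAP1 by 3.64-fold (2.43 to 5.58) and GIMAP1 exceeded GIMAP8 by 3.20-fold (1.498 to 7.60). The steps from GIMAP8 to GIMAP7 and from GIMAP7 to GIMAP5 were within counting error. In 697 the order was GIMAP2, GIMAP1 and GIMAP6, followed by 4 members with 0 reads. There GIMAP2 exceeded GIMAP1 by 22.4-fold (17.6 to 28.7). GIMAP2 thus led in both lines, and the gene next to it was GIMAP4 in REH and GIMAP1 in 697.

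Shares of the family's reads do not depend on how the library totals are scaled. GIMAP2 took 84.8% of 1588 family reads in REH (exact Clopper-Pearson interval 82.9% to 86.5%) and 90.6% of 820 in 697 (88.4% to 92.5%). GIMAP1 took 2.08% in REH (1.43% to 2.91%) and 9.27% in 697 (7.37% to 11.5%). GIMAP4 took 6.23% in REH (5.10% to 7.54%), and its share in 697 was 0 of 820 reads, for which the interval ends at 0.449%. GIMAP6 took 6.17% in REH (5.04% to 7.47%) and 0.122% in 697 (0.00309% to 0.678%). The shares of a line add up to the whole, so these are not 4 separate differences. GIMAP2 had a smaller share in REH although its CPM was higher there. The make-up of the family's reads differed by more than counting error, which leaves out the variation between cultures.

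A gene was called higher in a line if its log2 ratio was 2 or more in size. GIMAP4 and GIMAP6 were called higher in REH, and no member was called in the direction of 697. By the same rule, 12.5% of all 19145 genes compared were called in the direction of REH and 8.15% in that of 697. With 2 of 4 members past it, the count is too small to say more than these numbers. The median log2 ratio of the 4 genes was 3.0, or 2.51 with GIMAP4 set against the floor of 3 reads in 697. Over all genes compared it was 0.05. Because the 4 ratios spread from -1.64 to 7.19, the median describes none of the members. Of 19208 coding genes, 7.42% had reads in REH and 0 reads in 697, as 4 of the 7 members did, and 3.18% had the opposite pattern, as no member did. Among these 4, GIMAP5, GIMAP7 and GIMAP8 had only 2, 1 and 9 reads in REH. Only GIMAP4 showed the pattern with at least 10 reads, so it does not describe the family.

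**Figure D2:**
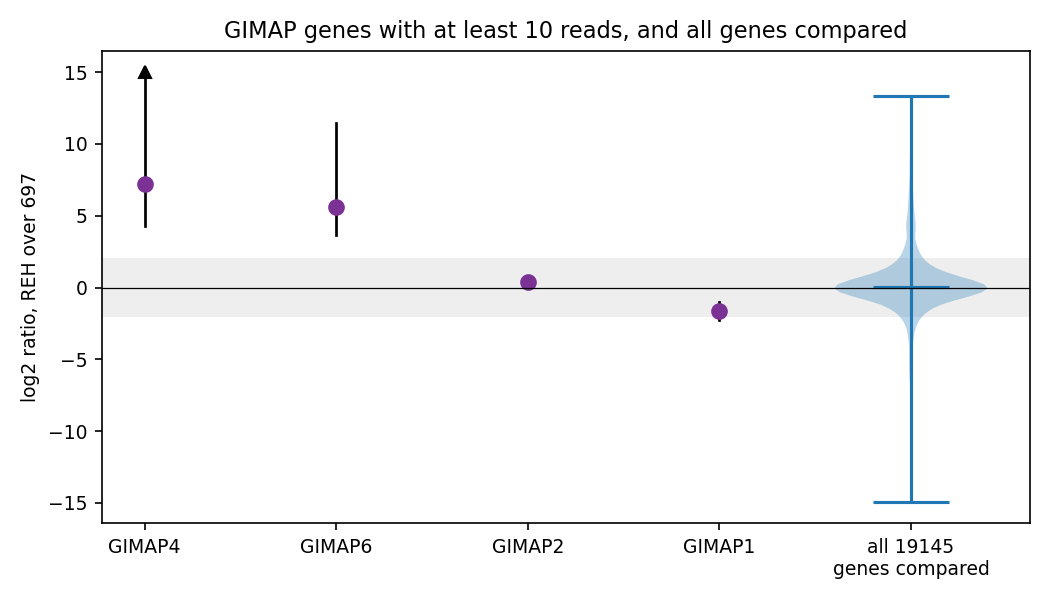
Log2 ratio of REH over 697 for the 4 GIMAP genes that were compared (points, with 95% counting intervals as lines and an arrow where the interval has no upper end), beside the distribution of all 19145 genes compared (violin, with its median and range). The grey band marks ratios under 2 in size; GIMAP4 and GIMAP6 lie above it, and GIMAP2 and GIMAP1 inside it.

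Summed over the 7 members, the family had 31.6 CPM in REH and 22.2 CPM in 697, a 1.42-fold difference (1.31 to 1.55). The log2 ratio of the sum was 0.51 (0.39 to 0.63). It moved to 0.82 without TMM scaling. This sum mainly reflects GIMAP2. The other 6 members together had 242 reads in REH and 77 in 697, and without GIMAP1 as well the remaining 5 had 209 and 1, groupings that were made after the values were seen. The coding genes nearest to the summed family in the log2 CPM of both libraries were MTF1 (31.8 and 22.1 CPM), TMEM120B (31.7 and 22.0 CPM) and IFT46 (32.0 and 22.2 CPM). With 2 libraries this likeness carries little information, since 29 coding genes lay within a distance of 0.1 on the log2 scale.

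GIMAP1 and GIMAP5 overlap in GENCODE 44, and a readthrough gene named GIMAP1-GIMAP5 shares 8.98% of the exon bases of GIMAP1 and 31.0% of those of GIMAP5. The readthrough gene was not analysed here. GIMAP1 and GIMAP5 themselves share 118 exon bases in GENCODE 44. The annotation used for counting is not stated, and reads in shared bases would have been left out as ambiguous. The pseudogene GIMAP3P had 0 reads in both libraries. Reads that map to several places were not counted for any gene. Of all 50-base words in the GENCODE 44 exons of the members, 93.4% in GIMAP2, 98.1% in GIMAP1 and 100% in the other 5 genes occur once in the GRCh38 chromosomes. The part of multimapping in the low counts was not tested.

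The libraries did not keep strand, since 50.1% of the gene reads of REH and 50.2% of those of 697 were on the sense strand. GIMAP2 had 683 and 663 reads on its own and the opposite strand in REH, and 338 and 405 in 697. GIMAP4 was split into 57 and 42 reads in REH, GIMAP6 into 51 and 47, and GIMAP1 into 23 and 10. For all 7 members and both libraries, the strand columns added up to the count without strand, so no member lost reads to a gene on the opposite strand. The log2 ratio of GIMAP1 was -2.22 from the opposite strand alone, with 10 reads in REH and 36 in 697, and was then past the threshold.

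The 7 genes span 299 kb. In their order along the chromosome, GIMAP8, GIMAP7, GIMAP4 and GIMAP6 occupy the side where 1 read in all was counted in 697. GIMAP2, GIMAP1 and GIMAP5 follow, and the reads of 697 came from GIMAP2 and GIMAP1. The gap between GIMAP6 and GIMAP2, where this pattern changed, is 53.0 kb, the widest gap of the cluster, although the gap between GIMAP4 and GIMAP6 is 51.4 kb. In REH, reads were found on both sides. Beside GIMAP3P, 7 genes outside the family were counted within the span, all of them pseudogenes with 0 reads.

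Genes within the cluster or as far as 500 kb from its ends were then examined. Of 39 such genes, 17 were compared, all of them outside the cluster, and their median log2 ratio was -0.08. None was higher in REH at a log2 ratio of 2, and KCNH2 and AGAP3 were higher in 697. Over all genes compared, the shares were 12.5% for REH and 8.15% for 697. KCNH2, a potassium channel gene 195 kb beyond GIMAP5, was counted 29 times in REH and 461 times in 697, and its log2 ratio was -4.41 (-5.03 to -3.89). AGAP3 had 1031 and 3654 reads (-2.27, -2.37 to -2.17), and its ratio was -1.96 without TMM scaling. On the GIMAP8 side, the zinc finger genes REPIN1 (131.8 CPM in REH and 176.7 CPM in 697) and ZNF775 (39.3 and 32.9 CPM) differed little, with log2 ratios of -0.42 and 0.25. The remaining neighbours that reached 100 reads were NOS3, ABCB8, ASIC3, CDK5, SLC4A2, FASTK, TMUB1, ABCF2 and CHPF2, whose log2 ratios lay between -0.35 and 0.95. The near neighbours TMEM176A, TMEM176B and AOC1 had 0 to 2 reads in each library. LINC00996, the noncoding gene next to GIMAP8 on its outer side, had 5 reads in REH and 1 in 697 and was not compared. With 17 neighbours compared, the counts of called genes are too small to be told apart from the shares over all genes.

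**Figure D3:**
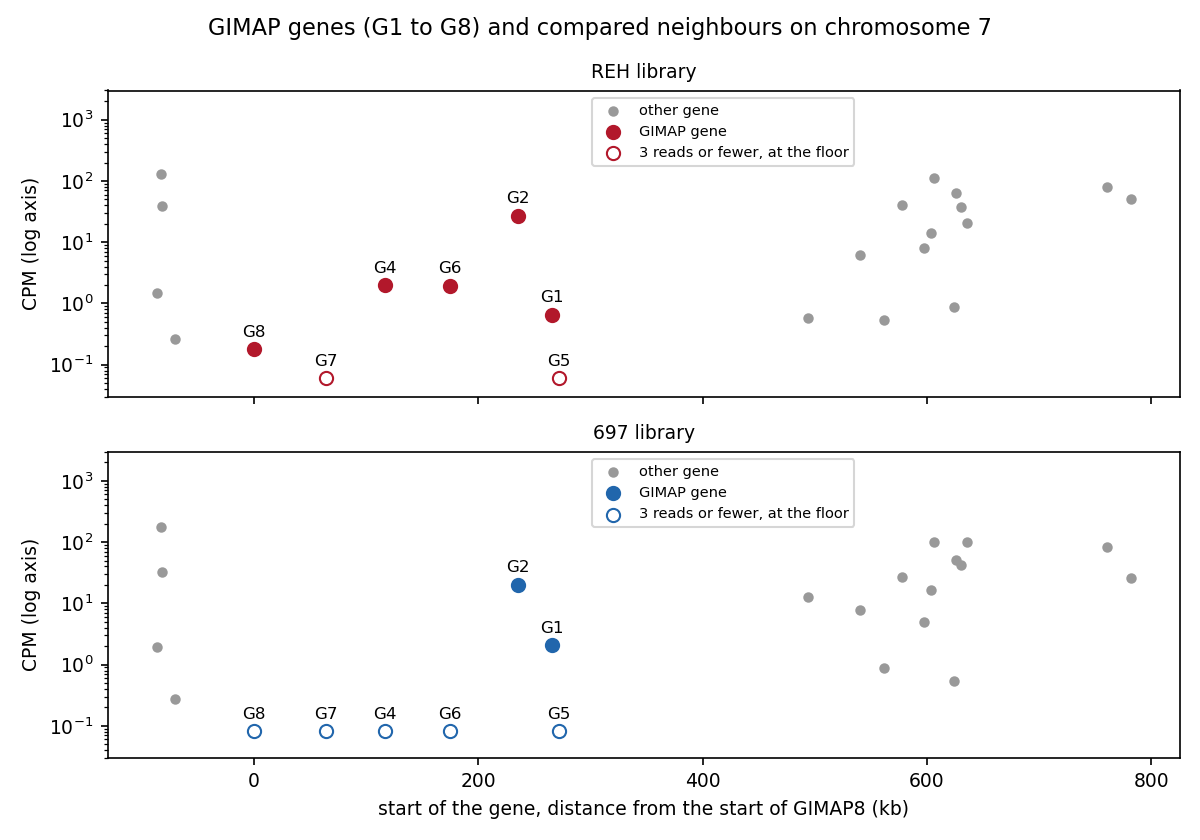
CPM (log axis) of the 7 GIMAP genes, written G1 to G8, and of the 17 neighbours compared (grey), against the distance of their start from that of GIMAP8 in kb, for REH (top) and 697 (bottom). Open circles are genes with 3 reads or fewer, drawn at the floor: 2 GIMAP genes in REH and 5 in 697.

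The lineage of the cells was checked with marker genes, since GIMAP genes are more typical of mature T and B cells. All 14 markers of B-lineage precursors that were counted reached 10 reads in at least 1 line, among them PAX5 (792 CPM in REH and 1224 CPM in 697) and RAG1 (1535 and 577 CPM). The surrogate light chain gene VPREB1 was the exception in REH, with 3 reads against 10039 in 697. By the log2 ratio of 2, VPREB1 was called higher in 697 and CD79B, at the threshold with 481 CPM in REH and 120.3 CPM in 697, higher in REH. Of 15 markers of T and NK cells, 8 were compared, and CD3D, CD2, CD7 and CD4 had 0 reads in both. CD3E was found in REH alone, with 45 reads against 0. The signalling genes ZAP70 (33.8 and 61.5 CPM), BCL11B (22.7 and 50.02 CPM) and CD247 (9.91 and 2.35 CPM) were counted in both lines, and NKG7 reached 2.45 CPM in REH and 14.7 CPM in 697. The summed level of the 15 markers was 78.5 CPM in REH and 157 CPM in 697, the reverse of the direction of GIMAP4 and GIMAP6. Of the 8 markers compared, 2 were higher in REH (CD3E and CD247) and 2 were higher in 697 (NKG7 and CD8A). Over all genes compared, the shares were 12.5% for REH and 8.15% for 697, and 8 markers are too few to set against them. The part of other cells in the GIMAP reads was not tested.

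Myeloid and endothelial markers were examined as well, because GIMAP genes are also known from endothelial cells. The 5 endothelial markers counted summed to 0.438 CPM in REH and 5.14 CPM in 697, where KDR had 80 reads and EMCN 100 reads, against 1 and 3 in REH. The other markers did not share a direction: VWF had 12 reads in REH and 6 in 697, TEK 5 and 0, and CDH5 1 and 4. Myeloid markers summed to 261 CPM in REH and 2.27 CPM in 697, which was mainly MPO with 12643 and 12 reads. ITGAM had 403 reads in REH and 0 in 697. The monocyte genes CD14 (29 reads in REH and 8 in 697) and LYZ (1 and 2 reads) were low in both lines. By the log2 ratio of 2, 12.5% of all genes compared were higher in REH and 8.15% in 697. Of the 6 myeloid markers, 5 were compared, too few to set against these shares, and 3 were higher in REH, namely MPO, ITGAM and CD33. These 3 markers moved with GIMAP4 and GIMAP6, whereas CSF1R had 30 and 61 reads, and their part in the result was not tested.

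Proteins with which GIMAP proteins are known to act were taken next. GABARAPL2, the autophagy partner of GIMAP6, was counted in both lines, at 83.4 CPM in REH and 59.8 CPM in 697, with a log2 ratio of 0.48 (0.40 to 0.55). Its relative GABARAPL1 had 234 reads in REH and 0 in 697. Of the 7 ATG8 genes 5 were compared, GABARAPL1 was higher in REH, none was higher in 697, and the median log2 ratio was 0.48. With 1 of 5 past the threshold, against 12.5% of all genes compared in the direction of REH, the count says little about the ATG8 genes. MAP1LC3B, the most abundant of them, reached 155.0 CPM and 64.6 CPM. GIMAP6 and its partner were thus both counted in REH, whereas in 697 GABARAPL2 was counted beside 1 read of GIMAP6.

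The BCL2 family controls mitochondrial cell death, and some of its members have been described as binding partners of GIMAP proteins. Of 9 such genes, 8 were compared and none passed a log2 ratio of 2, with a median of -0.02. BCL2, the survival gene, had a level of 379 CPM in REH and of 204 CPM in 697, and its log2 ratio was 0.89 (0.85 to 0.93). BCL2L1 reached 95.9 and 103 CPM (-0.10), BAX 73.3 and 48.0 CPM (0.61), MCL1 196 and 217 CPM (-0.14) and BCL2L11 43.8 and 75.2 CPM (-0.78). The gene that was not compared, BCL2A1, had 7 reads in REH and 0 in 697. The 8 others were counted in both lines, whereas GIMAP4 and GIMAP6 had 0 and 1 reads in 697.

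Of 12 transcription factor genes of lymphoid cells, 10 were compared, with a median log2 ratio of -0.18. RUNX1 reached 455 CPM in REH and 775 CPM in 697, but gene counts do not separate the fusion transcript from RUNX1. RUNX2 had 81 and 139 reads, and RUNX3 had 0 in both. LEF1 was the most abundant of the list (595 and 1054 CPM). TCF7, a factor of T cell development, was higher in REH (477 and 6 reads, log2 ratio 5.75, 4.74 to 7.32). IKZF3 (13 and 314 reads, -4.99) and GATA3 (41 and 203 reads, -2.74) were higher in 697. Of the 10 factors, 1 was thus called for REH and 2 for 697, beside 12.5% and 8.15% of all genes compared.

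**Figure D4:**
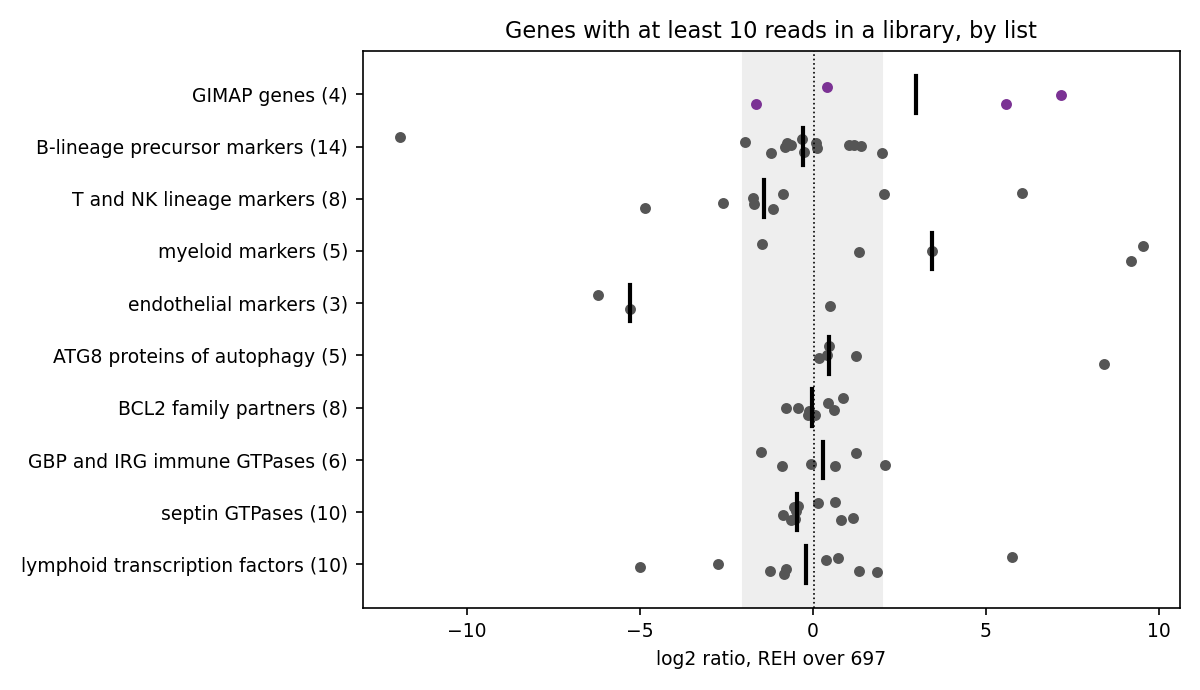
Log2 ratio of REH over 697 for each gene compared, by list (number of genes in brackets), with the median of each list as a vertical bar and that of all genes as a dotted line. The grey band marks ratios under 2 in size; the 4 GIMAP genes spread from -1.64 to 7.19, whereas the BCL2 family and the septins lie inside the band.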

How the data were processed

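Per the study's methods, the authors made TruSeq libraries from total RNA, ran them on a NextSeq 500 instrument and used STAR with the hg38 genome, whereas the submitters' processing notes name hg19. The labels describe ribodepleted stranded libraries and the methods poly-A purification. The deposited values are raw read counts per gene, as STAR gives them, in 3 strand columns. The annotation release is not given in the sources used here. Groups came from the cell line named in the labels, with 1 library each.

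Reads on either strand were used. Symbols, positions, coding lengths and exon lengths came from GENCODE 44 by gene ID, matching 51996 of 57773 IDs. The 4 rows that name no gene held 29.3% of REH reads and 30.3% of 697 reads, and stayed out of the totals. A minimum of 10 reads in 1 of the libraries decided which genes were compared. TMM factors were 1.11 for REH and 0.899 for 697 (edgeR 4.0.16, R 4.3.3). CPM used the scaled totals, and RPKM divided CPM by the summed exon length in kb. Log2 ratios were computed after adding 0.5 reads, with exact Clopper-Pearson intervals of the share of REH reads. Levels have exact Poisson intervals. PCR copies are not independent molecules, so intervals and floors hold counting error alone. With 1 library per line no test was made. A gene was counted as higher at a log2 ratio of 2 in size. Levels between genes use GENCODE 44 exons, which may differ from those counted.

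The members and gene lists were chosen with earlier results of these data known. Named are all 7 members, neighbours within 500 kb with at least 100 reads, and from each list the 2 most abundant genes and the 2 with the largest ratios at that depth, plus GABARAPL2, BCL2, BCL2L1 and BAX. Other list genes and neighbours named here were chosen after their values were seen. Promoters came from the RefSeq table (GRCh38.p14), where all 7 members matched. CD24 and PECAM1 were listed but not analysed here. The ratio, interval and threshold were tested on a simulated pair of libraries. Alternatives were DESeq2 1.42.0 size factors, unscaled totals, other TMM and upper-quartile factors, each strand column, 5 added reads, other read minimums and another threshold. Python 3.11.15 with scipy 1.17.1 was used for the remaining steps.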

Additional observations from a re-analysis of the deposited data

How the results depend on the processing

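GIMAP4 and GIMAP6 stayed higher in REH past a log2 ratio of 2 under every alternative run on these genes, with log2 ratios of 3.93 to 7.50 for GIMAP4 and 3.66 to 6.15 for GIMAP6. The lowest came with 5 reads added in place of 0.5, which sets the size of a ratio against 0 or 1 reads. The median of the members compared kept its direction (1.88 to 3.31), the lowest with a minimum of 1 read, which brings in the fitted ratios of GIMAP5, GIMAP7 and GIMAP8. The log2 ratio of the summed family reads was 0.82 with unscaled totals, 0.69 from the sense strand and 0.38 from the opposite strand, outside its counting interval but in the same direction. GIMAP2 kept its direction (0.29 to 0.72), as did GIMAP1 (-2.22 to -1.21). The number of members higher in 697 became 1 from the opposite strand and 1 at a log2 ratio of 1, both times GIMAP1. With a minimum of 1 read, 3 members were higher in REH, the third being GIMAP8 with 9 reads.

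Leaving out TMM scaling raised every log2 ratio by 0.31. Among neighbours and lists, tried without scaling after seeing the data, this changed 2 counts: 1 neighbour instead of 2 was higher in 697, and 2 lymphoid transcription factors instead of 1 were higher in REH. No paired analysis was possible because REH and 697 have 1 library each, and for that reason no library was left out. Depth limits GIMAP5, GIMAP7 and GIMAP8, which had 0 to 9 reads.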

Other observations

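Other families of GTPases with roles in immune cells or a related fold were looked at beside the GIMAP genes. Of 10 GBP and IRG genes, which are known from interferon responses, 6 were compared, and GBP1 was higher in REH (24.6 CPM against 5.79 CPM in 697, log2 ratio 2.09, 1.88 to 2.31). None was higher in 697, and the median log2 ratio was 0.31. IRGQ reached 54.9 and 23.1 CPM, and GBP4 reached 36.4 and 37.3 CPM. With 1 of 6 past the threshold, against 12.5% of all genes compared in the direction of REH, the count says little about these genes.

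The septins are filament-forming GTPases. Of 13 septin genes 10 were compared, none passed a log2 ratio of 2 in either direction, and the median was -0.44. SEPTIN9 (1088 CPM in REH and 691 CPM in 697) and SEPTIN6 (502 and 776 CPM) were the most abundant. SEPTIN1 had the log2 ratio largest in size, 1.17, followed by SEPTIN11 with -0.84. Summed septin levels of 2491 and 2715 CPM exceeded those of the GIMAP family (31.6 and 22.2 CPM) in both lines, a comparison of sums that is not corrected for gene length.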
